A study of Rattus norvegicus with 8 samples.

Results

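The opioid, galanin and orexin peptide systems were followed through 10 genes: the opioid precursors Pdyn and Penk, the opioid receptors Oprk1, Oprm1 and Oprd1, the galanin precursor Gal with its receptors Galr1 and Galr2, and the orexin precursor Hcrt with its receptor Hcrtr1. They were chosen by name, as all probes of the array that carry one of these gene names, which gave 25 spots among 15207; the whole array named 11564 genes. Whole hippocampi of 2-month-old rats were profiled. In the PNFLX group (4 samples) the pups had been treated with fluoxetine, a selective serotonin reuptake inhibitor, at a dose of 10 mg/kg. The control group (4 samples) had been given the vehicle of fluoxetine, sucrose in water at 5%. The treatment protocol gives postnatal days 2 to 21 for both groups. Descriptions of single samples name later end days for all PNFLX samples than for any control. Strain, sex, litter and the number of animals behind a sample were not given in the sources used here, so p-values measure only the spread between these samples. All 8 arrays lay on 1 slide, the PNFLX samples in its second row and the controls in its first, so slide row and treatment cannot be told apart.

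Neuropeptides are cut from larger precursors, stored in dense-core vesicles and released to act on G protein-coupled receptors. Dynorphin, from Pdyn, is stored in the mossy fibres of dentate granule cells and acts mainly on the kappa receptor (Oprk1), whereas enkephalins, from Penk, act on the mu and delta receptors (Oprm1, Oprd1); all of these receptors couple to inhibitory Gi/o proteins. Galanin reaches the hippocampus largely in noradrenergic fibres and acts on Galr1, which couples to Gi/o, and on Galr2, which also couples to Gq, while orexins are made by neurons of the lateral hypothalamus whose fibres reach the hippocampus, so that Hcrt is commonly used as a marker of hypothalamic tissue.

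Each spot of the array carried a probe of 60 bases. The probes of 4 genes are shown here, 5′ to 3′ and as the files give them, because the results turn on them: the Galr2 probe was printed on 10 spots, the Galr1 probe gave almost no signal, and Hcrt and Hcrtr1 were the orexin members. No bases are marked.
Galr2: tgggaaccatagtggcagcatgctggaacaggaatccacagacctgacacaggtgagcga
Galr1: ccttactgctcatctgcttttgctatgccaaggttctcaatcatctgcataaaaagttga
Hcrt: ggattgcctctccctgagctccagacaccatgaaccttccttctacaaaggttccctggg
Hcrtr1: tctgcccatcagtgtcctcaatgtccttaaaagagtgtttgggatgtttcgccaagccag
The files place the Galr2 probe at chr10:106410517-106410576 of rn4 (plus strand) and the Galr1 probe at chr18:78946809-78946868 (minus strand). They place the Hcrt probe at chr10:89714442-89715160 and the Hcrtr1 probe at chr5:149174596-149175614, both on the minus strand. The last 2 span 719 and 1019 bases of genome, so their bases are not contiguous there. No exon annotation of rn4 was used, so the place of each probe within its gene is not given.

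Levels throughout are log2 processed signals, given relative to the 75th percentile of their own array, and a difference is PNFLX minus control. That percentile lay between 873 and 941 intensity units on the PNFLX arrays and between 654 and 880 on the controls, and 70.5% to 77.9% of probes were well above background, the scanner software's flag for a signal clear of the local background. Hippocampal markers were measured on all arrays: the list mean of the CA pyramidal markers Wfs1 and Bok lay between 0.30 and 1.36 in PNFLX samples and between 0.88 and 1.23 in controls, and that of 5 dentate granule cell genes between -4.00 and -3.25 in PNFLX samples and between -4.00 and -3.50 in controls. Of 17 lists of pathway genes and cell type markers none had a probe past an adjusted p of 0.05, but several marker lists leaned one way. Below 0 were 9 of 9 oligodendrocyte probes (median -0.27), 7 of 8 microglia probes (median -0.23), 6 of 6 probes of brainstem and basal forebrain neurons (median -0.20) and 5 of 5 choroid plexus probes (median -1.15), of which 0, 0, 1 and 0 were under an unadjusted 0.05. Above 0 were 4 of 4 erythrocyte probes (median 0.47, 3 under an unadjusted 0.05) and 11 of 14 meninges and fibroblast probes (median 0.26, 4 under it). The choroid plexus list mean lay between -3.56 and -1.92 in PNFLX samples, and at 0.88 in control 4 against -3.97 to -2.91 in the other controls. The part of these markers in the members' values was not tested. Over all 11600 probes tested with limma (a probe had to be well above background on 4 or more arrays), 78 were called at that threshold after Benjamini-Hochberg adjustment, which is 0.672%, and 53 of these 78 lay in the first or last 5 of the 192 spot rows. The median difference over all tested probes was -0.03, with quartiles of -0.25 and 0.19.

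Of the 25 spots, 21 spots of 8 genes passed the filter on low values, and none of the 21 was called by limma (adjusted p between 0.103 and 0.962). The spots of Oprk1 and Galr1 did not pass and were not tested. At an unadjusted p under 0.05 there were 6 of 21 spots, or 28.6%, against 12.5% of all tested probes. The same 6 spots had groups that did not overlap, against 10.7% of all tested probes. They were 4 spots of the single Galr2 sequence, 1 of the 5 Gal spots and the Hcrt spot, so they stand for 3 genes. When spots with the same sequence were averaged on each array, an alternative chosen after seeing the data, Hcrt alone of the 8 genes was under an unadjusted 0.05, as were 1238 of all 9986 sequences. Signs were mixed, with 9 spots higher and 12 lower in PNFLX and a median of -0.14. Members lay in rows 9 to 179, outside the 5 rows at either end, and no member spot was saturated.

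**Figure D1:**
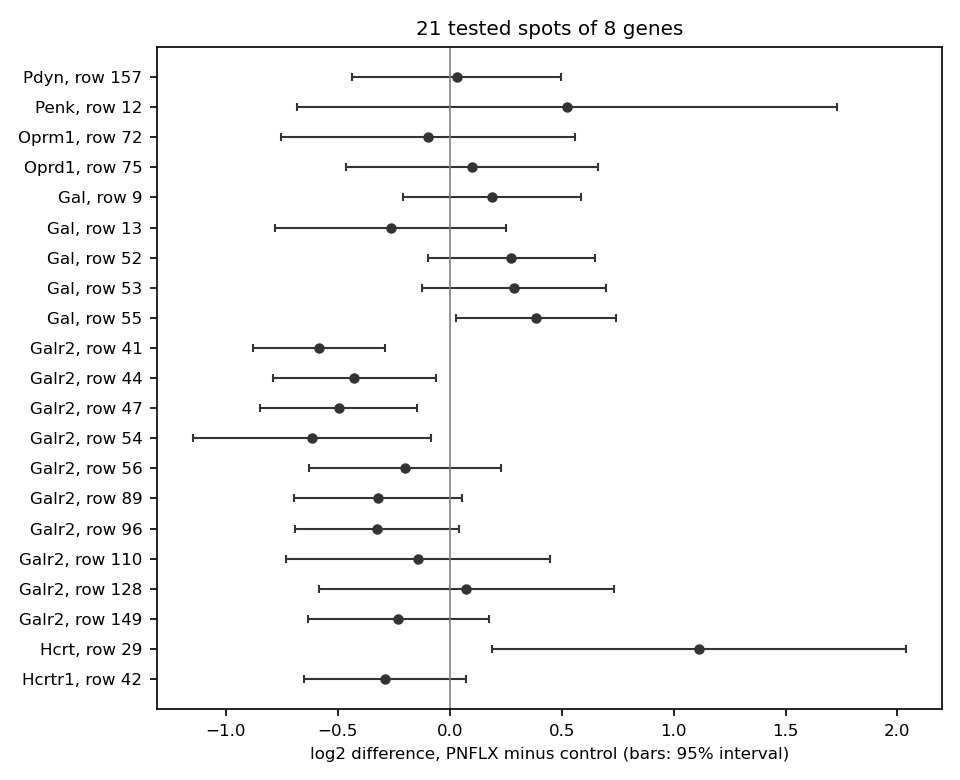
Log2 difference between PNFLX and control samples (x axis) for each of the 21 tested spots, named by gene and spot row, with 95% intervals from limma. The intervals of 4 Galr2 spots lie below 0 and those of Hcrt and of Gal in row 55 lie above 0, and none of the 21 passed the adjusted threshold.

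Pdyn, the precursor of dynorphins, had nearly equal means in the groups. Its values were 2.42, 2.41, 3.01 and 2.68 in PNFLX samples 1 to 4, against 2.84, 2.21, 2.52 and 2.82 in controls 1 to 4. The highest was PNFLX 3 and the lowest was control 2, and the groups overlapped fully. The mean was 2.63 ± 0.28 in PNFLX and 2.60 ± 0.30 in control (SD, n = 4 each), a difference of 0.03 (SE 0.20, 95% interval -0.43 to 0.50, limma adjusted p = 0.962). In whole tissue, fewer cells of a type and less RNA per cell cannot be told apart. Among the dentate granule cell markers beside it, Calb1, a calcium-binding protein of granule cells, was higher on every PNFLX array than on any control, by 0.36 (SE 0.13, limma adjusted p = 0.332), while Dsp, a desmosomal protein, differed by 0.08 (SE 0.24) and Pdzd2 by -0.84 (SE 0.55). 4 of these 5 genes were higher in PNFLX and 1 was lower.

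Penk, the precursor of enkephalins, was dim, and the array lists it under the name Penk-rs. The RefSeq gene table pairs that name with Penk, and the match of the probe to the Penk transcript was not checked. The spot was well above background on all 4 PNFLX arrays and on 2 of 4 controls, so the PNFLX arrays alone carried it past the filter. Its values were -4.67, -5.13, -3.27 and -5.02 in PNFLX, against -4.14, -6.19, -5.11 and -4.75 in control. PNFLX 3 was the highest sample and control 2 the lowest, and the other 6 were interleaved. The difference was 0.52 (SE 0.53, 95% interval -0.68 to 1.73, limma adjusted p = 0.702), an interval that holds both a fall and a rise. It was 0.11 without PNFLX 3 and 0.14 without control 2. The spot lay in row 12. Of 7 tested striatal neuron markers, which report tissue rich in Penk cells, 2 were higher and 5 lower; their list mean ran between -3.57 and -2.61 in PNFLX samples and between -2.84 and -2.64 in controls, and Drd1, the dopamine receptor of striatal projection neurons, did not pass the filter. The 3 of highest signal were Tac1, the substance P precursor, Rgs9, a regulator of G protein signalling, and Adora2a, an adenosine receptor, which differed by 0.01 (SE 0.27), -0.09 (SE 0.18) and -0.53 (SE 0.40). The part of such tissue in the Penk values was not tested.

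Oprk1, the kappa receptor on which dynorphin acts, was printed on 2 spots with the same sequence. Both were well above background on PNFLX 4, control 1 and control 4 and on no other array. In row 77 the values were -6.36, -6.24, -5.21 and -5.15 in PNFLX, against -5.56, -6.43, -5.80 and -6.01 in control. In row 171 they were -8.23, -6.34, -4.94 and -5.06 in PNFLX, against -5.77, -7.10, -6.00 and -5.61 in control. PNFLX 3 and 4 were the 2 highest samples on both spots, and the groups overlapped. The lowest signal that counted as above background was -4.77 on PNFLX 3, higher than on any other array, so PNFLX 3 was not above background in spite of its value. Across the 8 arrays the 2 spots correlated at r = 0.85, and they share the array and its background.

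Oprm1, the mu receptor, was near background on all arrays, and 2 of 4 PNFLX and 2 of 4 control arrays were well above it. Its values were -6.09, -5.48, -6.44 and -6.66 in PNFLX, against -6.53, -6.10, -5.98 and -5.67 in control. PNFLX 2 was the highest sample and PNFLX 4 the lowest, so the controls lay inside the range of the PNFLX samples. The difference was -0.10 (SE 0.29, 95% interval -0.75 to 0.56, limma adjusted p = 0.906).

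Oprd1, the delta receptor, was well above background on every array. Its values were -1.53, -1.49, -1.07 and -2.01 in PNFLX, against -1.48, -2.05, -1.22 and -1.74 in control. Each group held 1 sample near -2.0 and the groups overlapped. The difference was 0.10 (SE 0.25, 95% interval -0.46 to 0.66, limma adjusted p = 0.886).

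**Figure D2:**
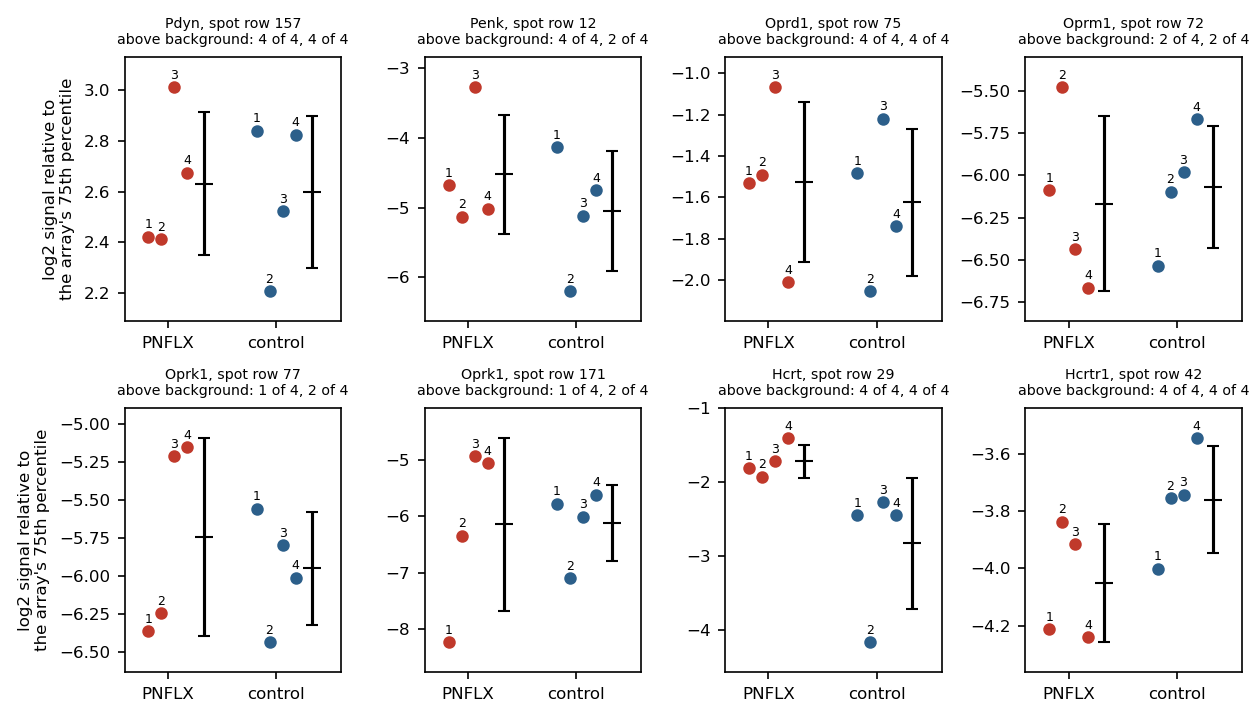
Log2 signal relative to the array's 75th percentile (y axis, a separate scale in each panel) for the opioid and orexin members, PNFLX samples in red and controls in blue, numbered by replicate, with mean and SD as a black bar. Titles give the spot row and how many PNFLX and control arrays were well above background; in the Hcrt panel the groups are apart and control 2 stands at -4.16.

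Gal, the galanin precursor, was printed on 5 spots with the same sequence, and all were well above background on every array. Averaged over the spots, its values were 1.39, 1.36, 1.90 and 1.64 in PNFLX, against 1.51, 1.43, 1.32 and 1.33 in control. PNFLX 3 and 4 lay above all controls, and PNFLX 1 and 2 lay among them. The difference was 0.17 (SE 0.16, 95% interval -0.18 to 0.53, adjusted p = 0.665 in limma on the averaged spots). Without PNFLX 3 the mean over the spots was 0.065.

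The 5 Gal spots did not read alike. The differences were 0.19, -0.26, 0.28, 0.29 and 0.39 in rows 9, 13, 52, 53 and 55, so 4 of 5 were higher in PNFLX. In row 55 the values were 1.34, 1.34, 1.88 and 1.55 in PNFLX, against 1.25, 1.03, 1.15 and 1.13 in control, and the groups did not overlap there (SE 0.16, limma adjusted p = 0.362). On PNFLX 3 the 5 spots lay between 1.88 and 1.93, a within-array SD of 0.02. On control 2 they lay between 1.03 and 2.47, with an SD of 0.60, the largest of the 8 arrays, and the value of 2.47 came from row 13, the spot whose difference had the opposite sign.

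That spot was compared with its surroundings, in a window chosen after seeing the data. On control 2 it stood 0.80 above the mean of the other 3 controls. The 38 neighbouring spots of other genes (within 5 rows and 2 columns) stood a median of 0.81 above it in the same way, and 31 of the 38, or 81.6%, were raised by over 0.5, against 8.97% of all tested probes. Their part in the Gal value was not tested.

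Galr2, the galanin receptor that couples to Gq as well as Gi/o, was printed on 10 spots with the same sequence, all well above background on every array. Its difference was below 0 on 9 of 10 spots, and 4 spots had groups that did not overlap. Averaged over the spots, the values were -2.54, -2.96, -2.59 and -3.08 in PNFLX, against -2.65, -2.58, -2.33 and -2.31 in control. PNFLX 2 and PNFLX 4 were lower than all controls, while PNFLX 1 and PNFLX 3 lay within the range of the controls. The difference was -0.33 (SE 0.17, 95% interval -0.72 to 0.07, adjusted p = 0.483 in limma on the averaged spots).

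The 10 Galr2 spots differed among themselves. In rows 41, 44, 47 and 54 the differences were -0.58, -0.43, -0.50 and -0.62. In row 44 the groups barely missed each other, with PNFLX 1 and control 2 both at -2.57 after rounding. In the other 6, in rows 56 to 149, they lay between -0.33 and 0.07, and the groups overlapped. The smallest adjusted p of any member was that of row 41, where the values were -2.75, -3.01, -2.78 and -3.00 in PNFLX, against -2.39, -2.39, -2.18 and -2.26 in control (SE 0.13, limma adjusted p = 0.103). That is 0.67-fold the control level, and on this spot every PNFLX array was below every control array. With row and column medians of the array subtracted, the differences in rows 41, 44, 47 and 54 were -0.26, -0.06, -0.34 and -0.96, and those in the other 6 rows lay between -0.41 and 0.14, so the split between the first 4 spots and the rest was not kept.

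The same samples were low on almost every Galr2 spot. PNFLX 4 was among the 2 lowest arrays on 10 of 10 spots, PNFLX 2 on 8 and control 1 on 2. Control 1 read -3.09 and -3.43 in rows 110 and 128, its lowest Galr2 values, and row 128 was the only spot with a difference above 0. Of the neighbours of these 2 spots on control 1, 8 of 24 and 11 of 45 stood more than 0.5 below the mean of the other controls, against 11.1% of all tested probes. Their part in the Galr2 values was not tested; the mean over the 10 spots was -0.39 without control 1, where all 10 were below 0, and -0.23 without PNFLX 4, where 8 were below 0. On PNFLX 2 the spot in row 54 stood 0.78 below the mean of the other PNFLX arrays. Its 37 neighbours had a median of 0.11, and 4 of them stood more than 0.5 below, or 10.8% against 8.37% of all tested probes. All 4 lay in the adjacent column: Oprl1 beside the spot at -0.98, and Kcnn1, Gnrh1 and Nup37 in rows 55, 57 and 59 at -0.76, -0.78 and -0.88. Slc9a9, in row 58 of that column, stood at 0.01. Their part in the Galr2 value was not tested.

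The spots of a gene share the sample, so they are not replicates of the treatment, but they show the error of a single spot. The spot differences of Galr2 covered a range of 0.69. Only 5 sequences had 10 tested spots, Galr2 among them, and over these the range had a median of 0.71 and lay between 0.19 and 1.70. Over the 13 sequences with 5 tested spots, Gal among them, it had a median of 0.96. The range of the 5 Gal spots was 0.65.

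**Figure D3:**
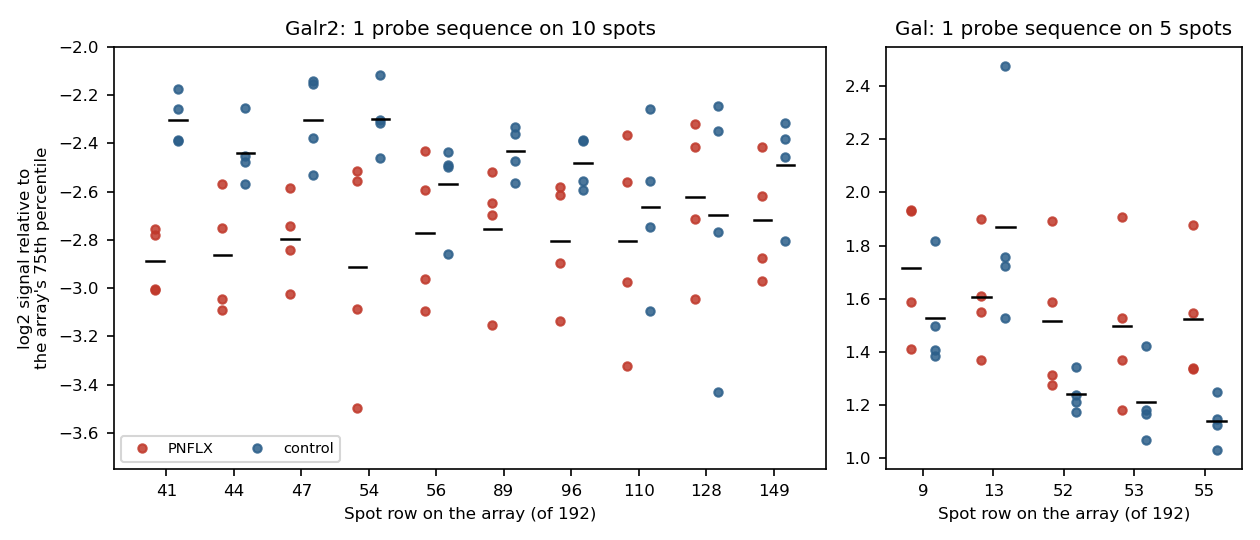
Log2 signal relative to the array's 75th percentile (y axis, a separate scale in each panel) on the 10 Galr2 spots and the 5 Gal spots, ordered by spot row (x axis), PNFLX arrays in red to the left and control arrays in blue, with group means as black lines. The Galr2 groups are apart in rows 41 to 54 and overlap from row 56 on, and the Gal value of control 2 in row 13 stands at 2.47.

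Galr1, the galanin receptor that couples to Gi/o, gave no usable level. Its spot in row 44 was well above background on 0 of 8 arrays and its spot in row 179 on 1, control 4. In row 44 the values were -8.60, -6.28, -5.73 and -6.65 in PNFLX, against -8.34, -8.63, -7.66 and -8.46 in control. In row 179 they were -5.95, -7.07, -6.27 and -6.90 in PNFLX, against -6.37, -6.16, -6.59 and -5.24 in control. The same sequence thus read higher in 3 PNFLX samples on one spot and not on the other, and the spots correlated at r = -0.61 over the 8 arrays. No fold is given, because both groups were at background in row 44 and the control mean in row 179 was below the mean floor of detection of the PNFLX arrays.

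Hcrt, the precursor of the orexins, had the largest difference of the 21 tested spots. Its values were -1.81, -1.92, -1.71 and -1.40 in PNFLX, against -2.44, -4.16, -2.26 and -2.44 in control. All PNFLX samples were higher than all controls, and control 2 lay far below the other 3. The mean was -1.71 ± 0.22 in PNFLX and -2.83 ± 0.89 in control (SD, n = 4 each). The difference was 1.11 (SE 0.40, 95% interval 0.19 to 2.04), or 2.17-fold, with an unadjusted p of 0.0237 and an adjusted p of 0.313 in limma.

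Leaving out control 2 reduced that size by more than any other sample did. Without it the difference was 0.67 (SE 0.17, limma adjusted p = 0.205), and the groups still did not overlap. With normexp background correction in place of the processed signal, the difference was 0.40 (SE 0.52, adjusted p = 0.640), and without scaling between arrays it was 1.41 (adjusted p = 0.0856). It was above 0 under all 21 alternatives tried and called under none. Several, such as the changes of filter and the replicate block, leave this difference at 1.11 by design, so its sign there was fixed.

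The surroundings of the Hcrt spot on control 2 were examined in the same window. Hcrt there stood 1.77 below the mean of the other 3 controls. Of its 45 neighbours 16, or 35.6%, stood more than 0.5 below, against 9.99% of all tested probes. The median of the 45 neighbours was -0.22, so most of them fell far less than Hcrt. Among them were Pou3f3 on the adjacent spot, at -1.51, and Ptpn1, 4 rows away in the same column, at -2.13. The part of this patch in the Hcrt value was not tested.

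**Figure D4:**
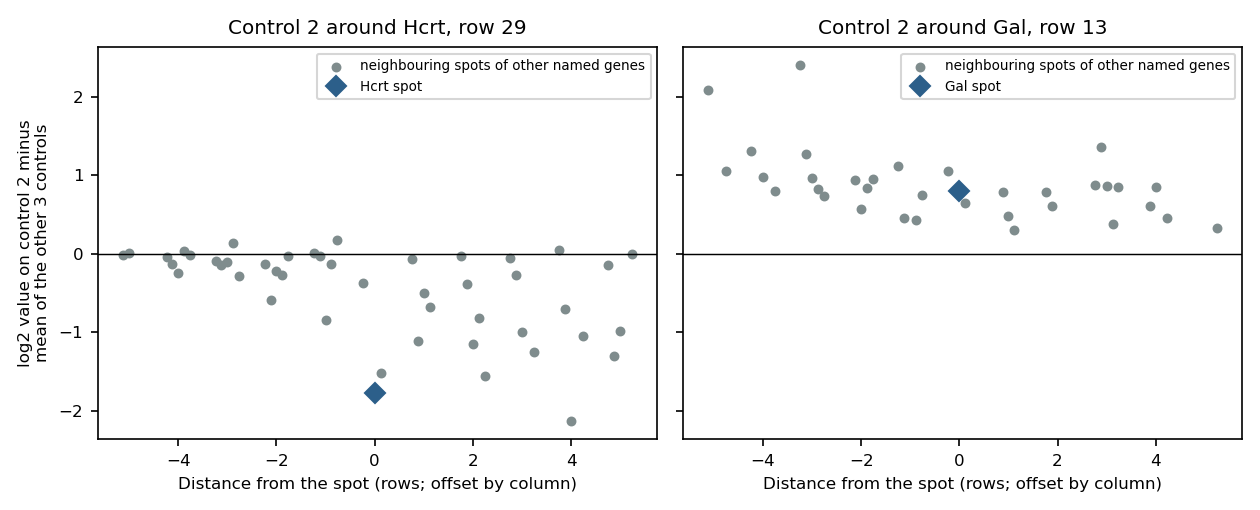
Value on control 2 minus the mean of the other 3 controls (log2, y axis) for the spots around Hcrt in row 29 (left) and around Gal in row 13 (right), against distance in spot rows (x axis, points offset by column); the member is the blue diamond. Only neighbours with a gene name are drawn. Around Hcrt 16 of 45 spots lie below -0.5, most of them in rows of higher number. Around Gal 31 of 38 lie above 0.5 when neighbours without a gene name are counted too.

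The other markers of hypothalamic neurons had mixed signs. Of 9 listed genes 8 were tested, none was called, and 3 were higher and 5 lower in PNFLX. Their list mean ran between -3.11 and -2.83 in PNFLX samples and between -3.16 and -2.63 in controls, and Nr5a1, a factor of the ventromedial nucleus, did not pass the filter. Pmch, the melanin-concentrating hormone precursor of the same lateral hypothalamic area as Hcrt, differed by 0.12 (SE 0.19) and -0.04 (SE 0.21) on its 2 spots. Oxt, the oxytocin precursor, was lower on every PNFLX array than on any control, at -4.64, -4.69, -4.69 and -4.37 in PNFLX, against -4.33, -4.32, -4.31 and -4.13 in control (difference -0.33, SE 0.13, limma unadjusted p = 0.0355). It was the 1 of 9 probes of this list under an unadjusted 0.05, or 11.1%, a share near the 12.5% of all tested probes. Groups did not overlap on 10.7% of all tested probes, so nothing particular to Oxt is read from this. The 3 of highest signal, Pomc, Cartpt and Agrp, which are peptides of the arcuate nucleus, differed by -0.10 (SE 0.13), -0.54 (SE 0.45) and -0.12 (SE 0.14).

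Hcrtr1, the orexin receptor with a preference for orexin-A, was well above background on every array. Its values were -4.21, -3.84, -3.92 and -4.24 in PNFLX, against -4.00, -3.76, -3.74 and -3.55 in control. PNFLX 1 and 4 were the lowest samples, and PNFLX 2 and 3 lay within the range of the controls. The difference was -0.29 (SE 0.16, 95% interval -0.65 to 0.07, limma adjusted p = 0.492).

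Further genes of the 3 systems came from a list of 10, of which 6 were tested on 15 spots: 8 were higher, 7 were lower, none was called, and the median was 0.00. Under an unadjusted 0.05 there were 4 of 15, or 26.7%, against 12.5% of all tested probes. Of the 4, 3 were Galr3 spots, with differences of 1.06, -0.97 and -1.65 in rows 83, 127 and 190, and the other was Oprl1. These Galr3 spots share a sequence and disagree in sign, and the controls alone carried the spot in row 190 past the filter. The share is therefore one of spots and not of genes. Oprl1, the nociceptin receptor, read -0.44, -1.29, -0.15 and -0.35 in PNFLX, against 0.27, -0.20, 0.11 and -0.02 in control, a difference of -0.60 (SE 0.25, limma adjusted p = 0.384). PNFLX 3 alone reached into the controls' range, and PNFLX 2 was the lowest, on the spot adjacent to Galr2 in row 54. Pnoc, the nociceptin precursor, read 1.34, 1.65, 1.54 and 1.94 in PNFLX, against 1.45, 1.29, 1.42 and 1.27 in control, with the groups overlapping (difference 0.26, SE 0.15).

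Hcrtr2, the second orexin receptor, differed by 0.79 (SE 0.41, limma adjusted p = 0.475). Its values were -4.81, -3.70, -3.08 and -3.01 in PNFLX, against -4.10, -4.20, -4.42 and -5.02 in control. PNFLX 1 lay within the range of the controls and the other 3 above it. Galr3, a Gi/o-coupled galanin receptor, was on 10 spots, 9 of them tested, with differences between -1.65 and 1.06. The spot of -1.65 lay in row 190 of 192, where 0 of 4 PNFLX and 4 of 4 control arrays were well above background. Its mean was -6.62 in PNFLX and -4.97 in control. The controls alone carried it past the filter, so nothing is read from that spot.

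Of the enzymes and granins that process peptide precursors, 14 genes were tested on 19 probes; 9 probes were higher, 10 lower and none called, with a median of -0.01. Under an unadjusted 0.05 there were 4 of 19, or 21.1%, against 12.5% of all tested probes, and 2 of the 4 were probes of Pcsk6. Pcsk6, a proprotein convertase, read 1.96, 1.75, 1.52 and 2.00 in PNFLX, against 1.42, 1.31, 1.26 and 1.40 in control (difference 0.46, SE 0.14, limma adjusted p = 0.243). Its groups did not overlap on that probe, and its second probe differed by 0.41 (SE 0.17). Pcsk1n, an inhibitor of the prohormone convertase Pcsk1, read 3.91, 3.79, 3.81 and 3.72 in PNFLX, against 4.16, 4.08, 4.03 and 4.03 in control (difference -0.27, SE 0.11, limma adjusted p = 0.381), again without overlap. Pam, which amidates the ends of peptides such as galanin and orexins, differed by -0.38 (SE 0.16). Chgb, a granin of dense-core vesicles, had only 1 PNFLX spot free of an outlier mark, at 5.84, against 6.49, 6.02, 6.35 and 6.67 in control, and its difference has no replicate check.

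Of the peptidases, 14 genes were tested on 21 probes; 8 were higher, 13 lower, none was called and 0 were under an unadjusted 0.05, with a median of -0.17. Mme, neprilysin, which degrades enkephalins, read -4.42, -4.32, -3.31 and -3.31 in PNFLX, against -4.60, -4.19, -4.44 and -4.63 in control (difference 0.62, SE 0.29, limma adjusted p = 0.441); PNFLX 3 and 4 carried that difference. Prep, prolyl endopeptidase, differed by -0.29 (SE 0.16), Lnpep, an aminopeptidase that cleaves oxytocin, by -0.29 (SE 0.18), and Nln, neurolysin, by -1.29 (SE 0.83), where PNFLX 2 read -4.86.

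Of the Gi/o proteins, effectors, kinases and arrestins that these receptors use, 32 genes were tested on 44 probes; 16 were higher, 28 lower and none called, with a median of -0.08. Under an unadjusted 0.05 there were 5 of 44, or 11.4%, a share near the 12.5% of all tested probes. Adcy5, an adenylyl cyclase inhibited by Gi/o, read 2.66, 2.07, 2.17 and 2.29 in PNFLX, against 1.41, 1.58, 1.42 and 1.47 in control. Its groups were wide apart on that probe, in row 11, with a difference of 0.83 (SE 0.16, limma adjusted p = 0.0668), whereas a second probe in row 176 differed by -0.24 (SE 0.30). Grk2, the kinase that desensitises opioid receptors, read -0.61, -0.83, -0.67 and -0.59 in PNFLX, against -0.22, -0.30, -0.16 and -0.29 in control in row 37 (difference -0.43, SE 0.12, limma adjusted p = 0.192). Its other 2 probes differed by 0.18 (SE 0.13) and -0.30 (SE 0.20), so the probes of Grk2 disagreed in sign.

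Arrb2, beta-arrestin 2, read -2.70, -2.51, -3.58 and -3.27 in PNFLX, against -1.32, -2.01, -1.83 and -1.66 in control (difference -1.31, SE 0.27, limma adjusted p = 0.0852), without overlap, and was well above background on 3 of 4 PNFLX and 4 of 4 control arrays. Gnai1, an inhibitory G protein subunit, was well above background on 1 of 4 PNFLX and 4 of 4 control arrays, and read -3.83, -7.61, -6.24 and -5.26 in PNFLX, against -4.79, -1.70, -1.76 and -2.22 in control. The controls alone carried it past the filter, and no size of difference is given. Both spots lay at the end of the array, in rows 191 and 190. Of the 78 called probes of the whole array, 53 lay in the first or last 5 rows.

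**Figure D5:**
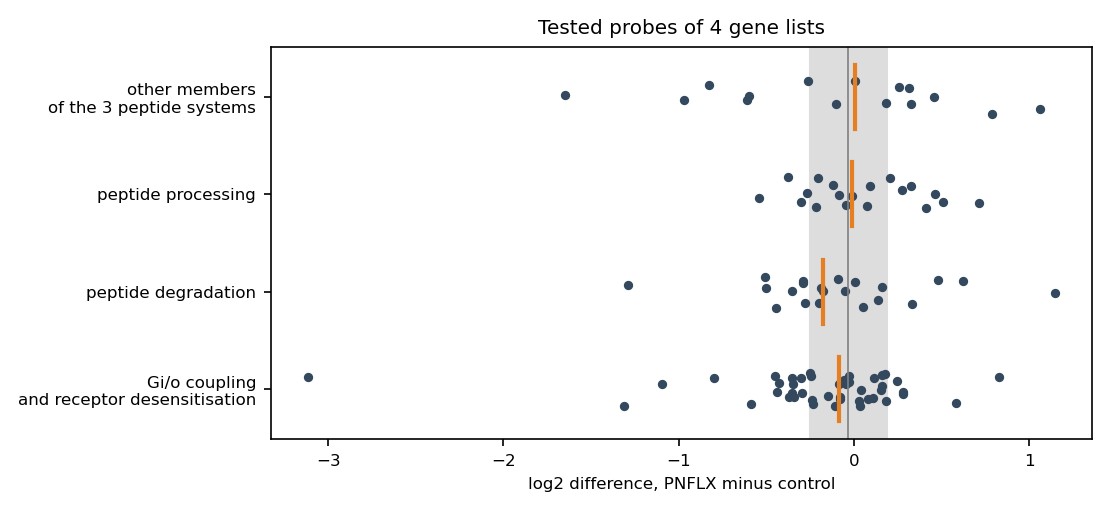
Log2 differences (x axis) of the tested probes in the 4 pathway lists, 1 point for each probe, with list medians as orange lines; the grey band holds the quartiles of all 11600 tested probes. List medians lie between -0.17 and 0.00, inside that band.

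The genes whose values across the 8 arrays were most like those of the brightest spot of each precursor were Trak1 (r = 0.95) and Htr2c (r = 0.94) for Pdyn, and Trak1 (r = 0.95) and Ippk (r = 0.95) for Penk. For Gal in row 13 they were Pias2 (r = 0.92) and Ppp1r1a (r = 0.90), and for Hcrt Lamtor3 (r = 0.98) and Ptpn1 (r = 0.98). The Gal spot in row 13 is the one raised on control 2 together with its neighbours, so its likeness need not hold for the other Gal spots. Ptpn1 is the dim neighbour of Hcrt described above, and the Hcrt values include the outlying control 2. All these genes were picked as the highest r among the named tested genes. How high r runs among unrelated genes on 8 arrays was not tested, so no shared regulation is read from them.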

How the data were processed

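Hippocampal RNA, labelled with Cy3, was hybridised to custom single-colour Agilent arrays, per the labels' protocols. The intensity values are processed signals of Agilent Feature Extraction 10.5.1.1, per the file headers, which place the probes on rn4 and state detrending within the array. The authors also deposited log2 values, which matched log2 of the processed signal, scaled to the array's 75th percentile and centred on each probe's median, within 0.00242.

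The processed signals were put on a log2 scale, and from each array the 75th percentile over its 15207 probes other than controls was subtracted. The 521 spots with an outlier mark were left out, and 11600 probes well above background on 4 or more of 8 arrays were tested. Each spot was fitted separately with limma 3.58.1 in R 4.3.3 (group as the only term, Benjamini-Hochberg adjustment over all tested probes, threshold 0.05); SE is the moderated standard error. Group and replicate came from the source names. The protocol's end of treatment, day 21, was used. The descriptions of single samples name days 21 to 24 for controls 1 to 4 and 25 to 28 for PNFLX 1 to 4. Every PNFLX sample thus has a later described end than every control, and which source is right could not be told. Symbols came from a RefSeq table of assembly GRCr8 (14144 of 15207 probes), used for names only. The fit was tested on simulated data.

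The members and lists were chosen with earlier results of these data known. Text names all members, the 4 genes of smallest p in each pathway list, the 3 of highest signal in marker lists that bear on a member, and the 2 genes most correlated with each precursor's brightest spot. Oxt, Pmch, Nr5a1, Drd1, the neighbouring spots and further probes of named genes were named after their values were seen. Interneuron, thalamic neuron and astrocyte markers also had 0 called probes, with medians of 0.00, 0.05 and -0.08. Precision is limited by the 4 arrays in each group. Alternatives covered background correction, scaling, the filter, array position, a replicate block, each sample left out and averaging of repeated sequences.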

Additional observations from a re-analysis of the deposited data

Results flagged for a closer look

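In 50 groups of 4 samples, 2 held a sample that stood apart from the other 3 beyond Dixon's 95% critical value, and chance marks about 1 group in 20. The first was Hcrt in row 29, where control 2 read -4.16 while the other controls lay between -2.44 and -2.26, a gap of 0.906 of the group's range; the value without control 2 stands in the report. The second was Galr2 in row 56, where control 2 read -2.86 while the other controls lay between -2.50 and -2.43, a gap of 0.849 of the range; on the other 9 Galr2 spots control 2 did not stand apart.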

How the results depend on the processing

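The count of called member spots was 0 under all 21 alternatives. Of 413 recomputed member differences 21 changed sign. Many of the 413 could not, because changes of filter, rows left out or the replicate block leave a spot's difference as it was. Over all probes, limma called 78; this became 0 with the first and last 5 rows left out (1261 at an unadjusted 0.05), 46 without the filter on dim probes, 47 with probes above background on all 8 arrays, 34 with row and column medians subtracted, 50 with normexp and 143 without scaling between arrays, and it ran between 33 (without control 4) and 104 (without PNFLX 3) when single samples were left out. Among the pathway lists, Adcy5 was called without scaling (1 probe of the Gi/o list, 1.13, limma adjusted p = 0.0353), and leaving out single samples gave 0 to 3 calls among the other genes of the 3 systems, the 3 being Galr3 spots without PNFLX 3. Without scaling the median of all probes shifted by 0.30, to 0.26, and the differences of Oprm1 (0.20), Gal in row 13 (0.032), Galr2 in rows 56, 110 and 149 (0.10, 0.16 and 0.067) and Hcrtr1 (0.0063) turned above 0, all below the median of all probes. With normexp, whose median was -0.38, Penk (-0.65), Oprd1 (-0.29) and Galr2 in row 128 (-0.64) turned below 0 and Gal in row 13 (0.82) above it. With row and column medians subtracted, Gal in row 9 (-0.31) and Galr2 in row 149 (0.14) changed sign. Leaving out single samples changed the sign of Pdyn (-0.10 to 0.11), Oprm1 (-0.33 to 0.068), Oprd1 (-0.053 to 0.26) and Galr2 in rows 110 (-0.29 to 0.032) and 128 (-0.17 to 0.23). The mean over the Galr2 spots ran between -0.69 with normexp and -0.03 without scaling, where 6 of 10 spots were below 0. Relative to the median of all probes it was -0.31 with normexp, -0.29 without scaling and -0.29 as reported. With normexp the single Galr2 spots moved unequally, for example from 0.07 to -0.64 in row 128 and from -0.58 to -0.67 in row 41. The mean over the Gal spots was 0.67 with normexp, or 1.05 relative to the median of all probes. The cause of these changes and of the sign changes was not tested. Controls and PNFLX samples that share a number also share a position along their slide row. Same-numbered samples correlated at 0.01, 0.08, 0.09 and 0.02 in their deviations from the group means, and the other pairs at -0.08 to 0.03. Not every sample correlated best with its own number, and these values do not settle whether the number pairs the samples. With the number as a replicate block 13 probes were called, 0 of them members. Oprk1, Galr1, Oprm1 and Penk were not well above background on some or all arrays, which limits what their differences can show.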
